A study of Mus musculus with 3 samples.

Results

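Müller glia are the principal glial cells of the retina. They span its full depth, take up glutamate and potassium released by neurons, move water, recycle retinoid for cone photoreceptors and supply lipid and matrix proteins. They are born last from the same progenitors that give rise to retinal neurons, and at postnatal day 14 (P14) they are newly differentiated. Somatostatin receptor 2, encoded by Sstr2, is an inhibitory G protein coupled receptor that the study tested as a regulator of retinal development.

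The Müller glia described here are the cells that the submitters' annotation of the P14 library names Muller Glia, 266 of 3298 P14 cells and of 14611 cells in the whole series. The P14 library is a single pool of dissociated retinas from littermates, marked before pooling with lipid-anchored barcode oligonucleotides (MULTI-seq) and sequenced as 1 droplet 3′ library. The mice carried a deletion allele of Sstr2, made on C57BL/6NCrl and crossed to outbred CD1, and were bred from heterozygous F1 parents on the C57BL/6 / CD1 background. The groups were of the same age, with no treatment: 1 wild-type (+/+) sample, 2 heterozygous (+/-) samples and 2 knockout (-/-) samples. Each barcode is called a retina below, although the number of retinas behind a barcode is not given in the sources used here, and the deletion is in every cell of the animal and not in glia alone.

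The 5 retinas contributed unequally. The wild-type retina gave 76 Müller glia with 1292696 unique molecular identifiers (UMIs, counted RNA molecules), and heterozygous retinas 1 and 2 gave 53 cells with 714609 UMIs and 14 cells with 148196 UMIs. Knockout retinas 1 and 2 gave 75 cells with 785860 UMIs and 48 cells with 599263 UMIs. Heterozygous retina 2 thus held the fewest cells and the least RNA, and values from it carry the widest counting error. A Müller cell had a median of 15108 UMIs, against 3374 in rods, 3939.5 in bipolar cells, 4512.5 in amacrine cells and 10245 in cones. Counts were summed over the Müller glia of each retina and are given as counts per 1000000 of those UMIs (CPM). Of the P14 barcodes, 7 also occurred in the P0 library and 4 in the explant library, and 2 and 1 of these were Müller glia.

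The glial markers were high in the labelled cells. The annotation is likely to rest on them, so their levels are a description and no support of the label. Glul, the glutamine synthetase that converts glutamate taken up from synapses, stood at 7251 CPM in the wild-type retina, 7670 and 8259 in heterozygotes and 7685 and 7943 in knockouts. Its mean of 7762 ± 373 CPM (SD, n = 5 retinas) was 29.5 times the level in amacrine cells, the next cell type. Apoe, a lipid carrier, was at 9122 ± 644 CPM and 23.4 times its level in bipolar cells. Rlbp1, the retinaldehyde-binding protein of the visual cycle, was at 2711 ± 232 CPM and 76.7 times its level in rods. Slc1a3, the glial glutamate transporter, was at 1627 ± 169 CPM, and Aqp4, the water channel of glial endfeet, at 656 ± 73.2 CPM (SD, n = 5 each). Every Müller cell had a Glul UMI, and 201 of 266 cells, or 75.6%, had UMIs of all 5 genes. Rods are shallower (median 3374 UMIs), and 27.4% of them had a Glul UMI and 8.85% an Rlbp1 UMI. In cones, bipolar and amacrine cells the shares were 39.1%, 37.2% and 44.1% for Glul and 12.2%, 11.8% and 13.2% for Rlbp1. These shares are the background against which the Müller shares are read.

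**Figure D1:**
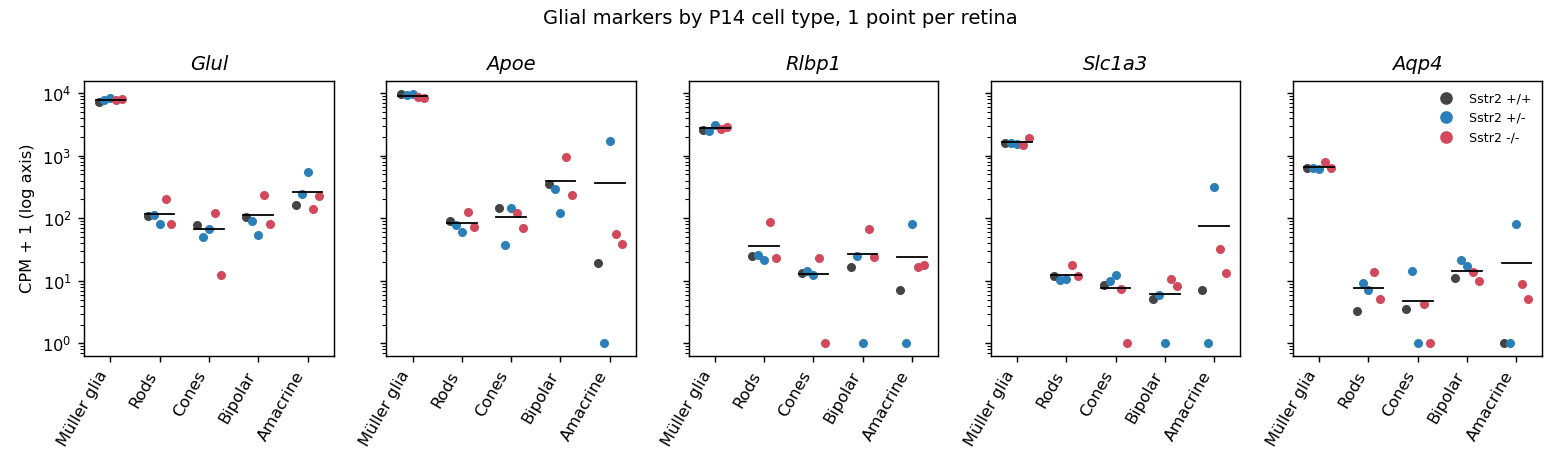
Each panel plots CPM + 1 on a log axis for 1 marker gene, with 1 point per retina in each P14 cell type, coloured by Sstr2 genotype, and a black line at the mean of 5 retinas. All 5 Müller glia points lie above every point of the other types for each gene, for example 7251 to 8259 CPM for Glul.

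In all, 526 of the 7359 genes with at least 50 UMIs in Müller glia, or 7.15%, were at least 4-fold above every other P14 cell type on the mean over retinas and above each of them in every retina. The amacrine level in heterozygous retina 2 rests on 4 cells and 12722 UMIs. Among genes outside the functional lists, the widest ratios belonged to Rftn2, a raft-associated protein, at 32.2 ± 6.80 CPM, Gpc3, a glypican, at 51.4 ± 18.5, and Gm26669, listed only by its gene model, at 262 ± 28.4 (SD, n = 5 retinas each). The cell adhesion molecule Vcam1 stood at 261 ± 32.0 CPM and the sphingosine phosphate receptor S1pr1 at 232 ± 34.9 CPM, with 1.42 and 1.35 CPM in rods, the next type. Cox4i2, an isoform of a cytochrome oxidase subunit, was at 776 ± 30.1 CPM, 109 times rods. Bmp3, the Notch-modifying enzyme Lfng, the matrix protein Sbspon, Folh1, Bves, Popdc3, Cmtm5, Car5b, Syt15, Gm2115 and Cyp1b1 made up most of the rest of the leading 20 genes.

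Spc25, a kinetochore subunit, also belonged to these genes and differed widely between retinas. Its level was 1433 CPM in the wild-type retina, 865 and 1485 in the heterozygous retinas and 1335 in knockout retina 2, but 30.5 CPM in knockout retina 1. A Spc25 UMI was found in 90.8% of wild-type Müller glia, in 90.6% and 100% of those from the heterozygous retinas and in 89.6% of those from knockout retina 2. In knockout retina 1 it was found in 17 of 75 cells, or 22.7%. In the progenitors of the P0 library all 5 samples lay between 286 and 347 CPM. The 2 knockout retinas thus lay apart from each other, and neither contrast passed the test (log2 fold change −1.08 ± 0.73 (SE) against wild type, edgeR adjusted p = 1). Prss56, a serine protease, also varied, from 9.28 CPM in the wild-type retina and 21.6 and 23.4 in the knockout retinas to 53.2 and 223 in the heterozygous retinas, and Optc, the matrix protein opticin, stood at 125 CPM in knockout retina 1 and between 1.67 and 27.8 CPM in the other retinas.

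Genes of the known duties of Müller glia were described by functional list, each gene counted as glial where it met the 4-fold rule. Only genes with at least 50 UMIs could meet it, and 7.15% of all such genes did, so the number of such genes is given for each list. For neurotransmitter recycling, 3 of 8 genes did so (8 with at least 50 UMIs): Glul, Slc1a3 and Aldh1l1, a folate enzyme of glia, at 36.1 ± 10.4 CPM (SD, n = 5). Slc1a2, another glutamate transporter, was at 136 ± 33.5 CPM, 0.12 times its level in cones. The GABA transporter Slc6a11 was at 179 ± 25 CPM, 3.07 times bipolar cells. For water, potassium and pH, 5 of 10 genes met the rule (6 with at least 50 UMIs). Car2 and Car14, carbonic anhydrases, were at 2879 ± 213 and 1027 ± 108 CPM, and Kcnj10, the inward rectifier potassium channel of glial endfeet, at 240 ± 52.2 CPM (SD, n = 5 each). Kcnj2 and Car12 had no UMI.

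Of 10 genes of the retinoid cycle, 4 of them with at least 50 UMIs, 3 met the rule, among them Rlbp1 and the retinol dehydrogenase Rdh10 at 304 ± 64.9 CPM (SD, n = 5). Rpe65 and Lrat, the isomerase and esterifying enzyme of the pigment epithelium, and Stra6 had no UMI among 3540624 Müller UMIs, which allows up to 0.847 CPM by the limit of 3 counts, and Rgr had 6 UMIs. For lipid transport, 6 of 10 (7 with at least 50 UMIs) met the rule, led by Apoe, by Dbi, an acyl-CoA binding protein, at 7137 ± 781 CPM, and by the apolipoprotein Clu at 2468 ± 220 CPM. For matrix and secreted proteins, 12 of 16 (15 with at least 50 UMIs) met it. Sparc was at 2832 ± 273 CPM, the growth factor Ptn at 2118 ± 121 and the collagen Col9a1 at 1193 ± 138, while Cp, the copper protein ceruloplasmin, was at 1046 ± 205 CPM and 154 times bipolar cells (SD, n = 5 each).

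Of 22 glial transcription factors, all with at least 50 UMIs, 11 met the rule. Hes1, a Notch effector, was at 2228 ± 331 CPM, Id3 at 1663 ± 201, Sox9 at 943 ± 114, Lhx2 at 504 ± 77.4 and Sox2 at 442 ± 52.4 CPM (SD, n = 5 each). Pax6, Six3 and Rax, which other retinal cells share, did not meet it. Of the Notch genes, 4 of 12 (7 with at least 50 UMIs) met the rule. Among them were the receptors Notch1 and Notch2 at 181 ± 22.6 and 41.0 ± 4.85 CPM, while the ligands Dll1 and Jag1 had 18 and 29 UMIs in all. Of the genes of serine synthesis and glial metabolism, 5 of 13 (9 with at least 50 UMIs) met the rule, among them the glycolytic enzyme Aldoc at 882 ± 58.8 CPM. Of the Hedgehog and Wnt genes, 3 of 12 (4 with at least 50 UMIs) did so, led by the Hedgehog receptor Ptch1 at 420 ± 29 CPM. Kdr and Flt1, receptors of vascular endothelial growth factor that are commonly used as endothelial markers, were at 875 ± 48.8 and 347 ± 75 CPM in Müller glia and had UMIs in 232 and 208 of 266 cells.

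Among 16 genes of intermediate filaments and gliosis, 8 of them with at least 50 UMIs, Lcn2, Edn2 and Timp1 had no UMI, Serpina3n had 2 and C4b had 1, while 4 genes (Nes, Socs3, Cebpd and Cd44) met the 4-fold rule. Vim was at 1352 ± 118 CPM, 0.945 times amacrine cells. Gfap, the filament that rises in reactive Müller glia, had 255 UMIs in 14 cells, most of which lay in cells with astrocyte markers described below. By contrast, 10 of 15 genes (14 with at least 50 UMIs) that respond early to stimulation and to tissue dissociation met the 4-fold rule, including Jun at 4140 ± 490 CPM, and Fos reached 6024 ± 708 CPM, 2.99 times cones (SD, n = 5 each).

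Progenitors of the P0 library gave a second point of reference, with 2797 cells from 5 other samples of the same allelic series. Library and age cannot be told apart in this comparison, so it is given as values. Several cell cycle genes were lower in P14 Müller glia than in P0 progenitors: Ccnd1 was at 110 ± 36.7 against 3885 ± 118 CPM, Mki67 at 4.4 ± 2.57 against 440 ± 29.2 CPM and Ccna2 at 0.254 ± 0.569 against 235 ± 11 CPM (SD, n = 5 each). Pcna, of the replication clamp, was at 0.237 times the P0 level, whereas the cyclin Ccnd3 and the cell cycle inhibitor Cdkn1b were at 4.04 and 1.97 times. Among transcription factors that progenitors and Müller glia share, Six3 was at 0.97 times, Lhx2 at 1.26 times and Sox2 at 1.53 times the P0 level, and Sox9 at 3.63 times, Nfix at 3.74 times and Nfic at 7.33 times. Aqp4 was at 0.364 ± 0.343 CPM and Clu at 1.02 ± 0.939 CPM in P0 progenitors, and Rlbp1 and Apoe were 50.3 and 50.9 times higher in P14 Müller glia. Hes5, a Notch effector, was lower at P14, at 327 ± 169 against 1030 ± 143 CPM, whereas Hes1 was 2.76 times higher.

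The class was not uniform in depth. Below 6000 UMIs lay 66 cells and above it 200, with 15 cells between 6000 and 10000. These shallow cells made up 6 of 76 wild-type Müller glia (7.89%), 8 of 53 (15.1%) and 5 of 14 (35.7%) in the heterozygous retinas, and 33 of 75 (44.0%) and 14 of 48 (29.2%) in the knockout retinas. The share was thus lowest in the wild-type retina, and the heterozygous and knockout ranges overlapped. Malat1, a nuclear long noncoding RNA, took a median of 0.576% of UMIs in shallow cells and 9.58% in deeper cells. Of the shallow cells, 40 had under 1% Malat1, against none of the 200 deeper cells, and 12 had over 10%, against 82 deeper cells. Of those 12 shallow cells, 11 came from the knockout retinas, which gave 33 and 14 of the 66 shallow cells. Mitochondrial transcripts took a median of 11.2% in shallow and 5.86% in deeper cells. Rod transcripts of the marker list took 0.415% and 0.113%. Pooled over shallow cells, Glul was at 5628 CPM and Rlbp1 at 2056 CPM, against 7704 and 2658 CPM in deeper cells, while Slc1a3 was at 727 against 1676 CPM and Aqp4 at 280 against 688 CPM.

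**Figure D2:**
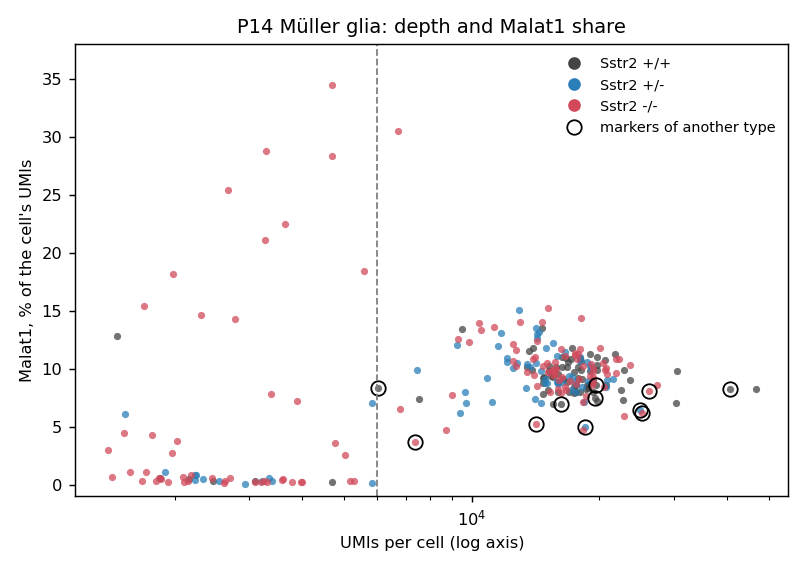
Each point is 1 of the 266 Müller glia, with UMIs per cell on a log axis against the percent of its UMIs from Malat1, coloured by genotype, with a dashed line at 6000 UMIs and open circles around the 11 cells with markers of another type. A dense group of 200 deeper cells has a median of 9.58% Malat1, and 40 of 66 shallow cells lie under 1%.

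A few cells under the label carried defining markers of other cell types. Gfap and Pax2, which together mark retinal astrocytes, were both detected in 8 cells: 4 from the wild-type retina, 2 from heterozygous retina 1 and 2 from knockout retina 1. These cells held 95.7% of Gfap, 98.1% of Pax2 and 88.6% of S100b UMIs of the class, and 7 of the 8 lacked Aqp4. At least 3 of the endothelial genes Cldn5, Pecam1, Cdh5 and Ly6c1 were found in 1 cell, from knockout retina 1, which held 85 of 86 Cldn5 UMIs. A pericyte pattern (Rgs5, Pdgfrb, Cspg4 and Vtn) was found in 1 wild-type cell with 111 Rgs5 UMIs, and a microglial pattern in 1 cell of knockout retina 2 with all 41 Cx3cr1 UMIs. These 11 cells are included in the results unless stated.

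Markers of other cell types, summed over each list, were uneven across retinas. The 10 rod markers summed to 4197 CPM in the wild-type retina, 1377 and 4022 in heterozygotes and 3097 and 2089 in knockouts, against 50242 CPM in rods. The 9 bipolar markers, led by Trpm1, summed to 298 CPM in the wild-type retina and to 112 to 144 CPM in the other 4. The 7 astrocyte markers summed to 541, 526 and 548 CPM in the wild-type retina, heterozygous retina 1 and knockout retina 1, and to 169 and 139 CPM in the other retinas, where no astrocyte-pattern cell was found. The 8 cone markers summed to 135 CPM in the wild-type retina and to 33.7 to 45.8 CPM elsewhere. Markers of amacrine, horizontal and ganglion cells summed to at most 50.1 CPM in any retina, and those of pigment epithelium, oligodendrocytes and red blood cells to at most 22.9 CPM.

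**Figure D3:**
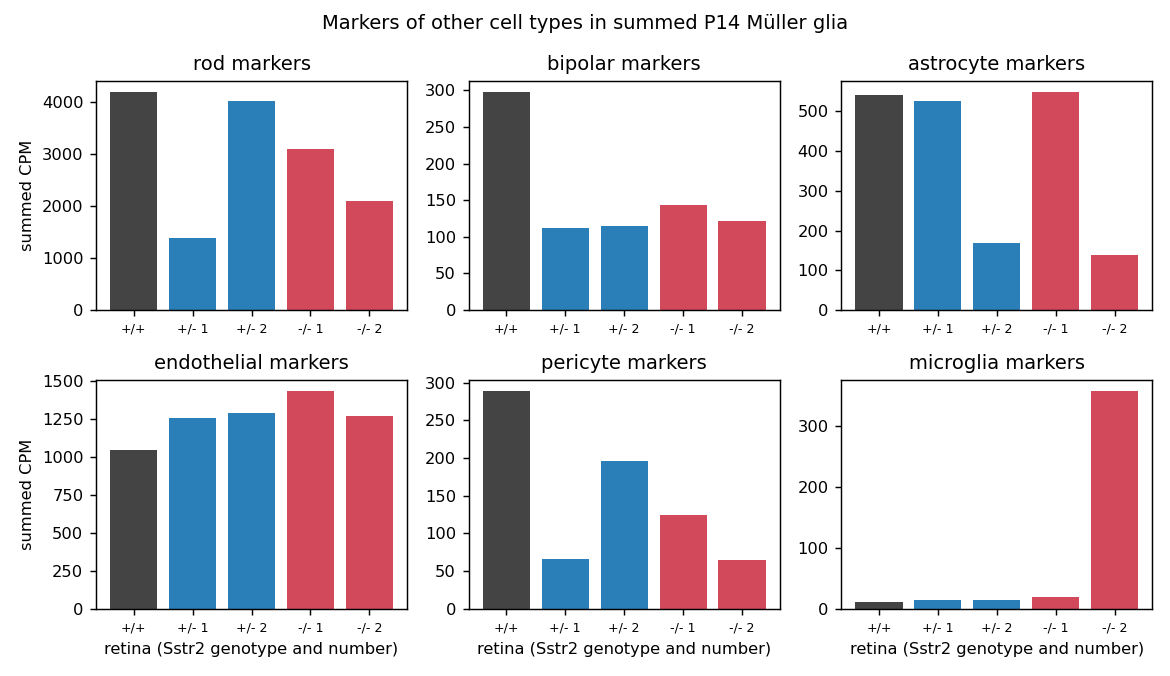
Bars give the summed CPM of each marker list in the Müller glia of each retina, coloured by genotype. Rod and bipolar sums are highest in the wild-type retina (4197 and 298 CPM), and the microglial sum of 359 CPM in knockout retina 2 comes with 1 cell of microglial pattern.

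The retinas also differed in sex. Xist, the noncoding RNA of the inactive X chromosome, was at 1296 CPM in heterozygous retina 2 and at 3.82 CPM or less in the others, and the Y-linked genes Ddx3y, Eif2s3y, Kdm5d and Uty were at 0 in heterozygous retina 2 alone. It was the only female retina by these genes, so sex and retina cannot be told apart.

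Sstr2 itself could not serve as a check of genotype in these cells. It had 0 UMIs in 266 Müller glia of any genotype, which allows up to 0.847 CPM and a share of up to 1.13% of cells with a UMI. Rods, cones and bipolar cells also had none. Amacrine cells had 18 UMIs in 5 of 68 cells, of which 14 came from the knockout retinas, so the count does not mark the deletion. Which part of the gene the allele lacks is not given in the sources used here, and genotypes are those of the labels. The ligand genes Sst and Cort had no UMI in Müller glia and Sstr1 had 1. Of the G protein subunits through which the receptor acts, Gnai2 was at 1051 ± 145 CPM, 11 times bipolar cells, and Gnao1 at 141 ± 17.9 CPM, 0.15 times bipolar cells (SD, n = 5 each).

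The share of Müller glia among all cells was 7.60% in the wild-type retina (95% exact binomial interval 6.03 to 9.42), 7.16% (5.41 to 9.26) and 4.61% (2.54 to 7.61) in heterozygotes and 11.9% (9.50 to 14.7) and 7.68% (5.72 to 10.1) in knockouts. Both knockout retinas lay above the other 3, with a mean of 9.80% against 6.46%, but knockout retina 2 did so by under 0.1 percentage points. The exact two-sided permutation test over 5 retinas gave p = 0.1, the smallest it can give, so this design cannot reach 0.05. Among cells other than rods, the shares were 22.9%, 31.5% and 24.1% in the wild-type and heterozygous retinas and 25.9% and 26.8% in the knockout retinas. There the difference shrank to 0.146 percentage points (exact permutation p = 1). Intervals cover counting error only, and dissociation and capture also set such shares.

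Gene expression was compared between knockout and wild-type retinas, and between knockout and heterozygous retinas, with edgeR's quasi-likelihood test on the summed counts of all 5 retinas. The single wild-type retina gives no measure of its own spread, which is taken from the other genotypes, and both comparisons use the same knockout retinas. Of 8816 genes tested, 5 passed an adjusted p of 0.05 between knockout and wild type (0.0567% of genes, with 1 higher, 0.0113%, and 4 lower, 0.0454%) and 9 between knockout and heterozygous (0.102% of genes, with 2 higher, 0.0227%, and 7 lower, 0.0794%). At an unadjusted p under 0.05 there were 275 and 288 genes. In the same model 5 genes (0.0567%) passed between heterozygous and wild-type retinas, among them Rgs5, Socs3, Prss56 and Pttg1. The median log2 fold change over all genes was 0.01 in both comparisons.

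None of the 5 given glial markers, and none of the tested members of the lists for transmitter recycling (8), retinoid cycle (4), water and pH (7), lipid transport (8), matrix (15), transcription factors (22), Notch (7), glial metabolism (9), Hedgehog and Wnt (4), early response (14), gliosis (9), cell cycle (7), neurogenic factors (7) or somatostatin signaling (4) passed in either comparison. Their list medians lay between −0.21 and 0.67 on the log2 scale against wild type and between −0.32 and 0.42 against heterozygous retinas. For Glul the log2 fold change was 0.11 ± 0.13 against wild type and −0.04 ± 0.11 against heterozygous retinas, and for Aqp4 0.14 ± 0.21 and 0.17 ± 0.18 (SE, edgeR adjusted p = 1 for each). Of the 4 tested retinoid genes, all were above the wild-type value in both knockout retinas (median log2 fold change 0.67), and so were 10 of 15 matrix genes (median 0.28). Of all genes tested, 29.6% lay above the wild-type retina in both knockout retinas and 31% below it. All 10 rod markers, 5 of 5 tested cone markers and 5 of 6 bipolar markers lay below it, with medians of −0.68, −1.48 and −1.37 on the log2 scale. Against heterozygous retinas, where 18% of all genes did not overlap upward and 13.4% downward, no rod marker was free of overlap, and 1 of 4 retinoid genes (median 0.19) and 1 of 15 matrix genes (median 0.00) were above both heterozygous retinas in both knockouts. Their part in the other differences from wild type was not tested. On the list that the study made from its P0 samples, 10 genes were tested. Of these, 1 (Gm8797) passed as lower against wild type and 2 (Gm8797 and Xist) passed as lower against heterozygous retinas. Among all tested genes, 0.0454% and 0.0794% passed as lower.

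Gm8797 gave the strongest result in both comparisons. It is a gene model with a ubiquitin coding sequence and a single exon at chr3:5750806-5751295 on the plus strand of GRCm38 (Ensembl ENSMUSG00000103034). It is also a near copy of the polyubiquitin gene Ubb on chromosome 11 (chr11:62551171-62553213), the chromosome that carries Sstr2. Over the 234 coding bases of Gm8797 the 2 genes differ at 6 positions, an identity of 97.4%, and the gene models Gm1821 and Gm8648 also share at least 200 bases at 90% identity or more. Within the part that the 2 genes share, 384 of 490 bases of Gm8797, reads must carry a differing base to be told apart. The 30-base stretch with the most differences, at chr3:5750943-5750972, is shown with the differing bases in capitals.
Gm8797: accCtAgaggtggagcccagtgacaccatT
Ubb: accTtGgaggtggagcccagtgacaccatC

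Gm8797 was at 436 CPM in the wild-type retina, 209 and 223 CPM in heterozygotes and 35.6 and 28.4 CPM in knockouts. The 3 genotypes did not overlap. Its log2 fold change was −3.75 ± 0.27 against wild type (edgeR adjusted p = 2.51e-09) and −2.74 ± 0.26 against heterozygous retinas (SE, edgeR adjusted p = 1.47e-06). It had UMIs in 160 of 266 cells, with at most 21 in 1 cell. Ubb stood at 2475 CPM in the wild-type retina, 2781 and 2645 in heterozygotes and 2852 and 2787 in knockouts (log2 fold change 0.19 ± 0.17 (SE) against wild type, edgeR adjusted p = 1). Rods and bipolar cells of these retinas gave values in the same genotype order. In rods Gm8797 was at 496 CPM in the wild-type retina, 246 and 250 CPM among Sstr2 +/- and 37.9 and 36.0 CPM among Sstr2 -/- retinas, and bipolar cells gave 390, 203, 242, 34.9 and 23.2 CPM in the same order. In the 68 amacrine cells, with 4 cells in each heterozygous retina, the genotypes overlapped, at 477 CPM in the wild-type retina, 150 and 0 in heterozygotes and 15.5 and 100.1 in knockouts. In the P0 progenitors the knockout samples were at 17.5 and 19.7 CPM, the wild-type sample at 221 CPM and the heterozygous samples at 415 and 220 CPM, so that there 1 heterozygous sample was higher than the wild type. Gm8797 is on a list that the study chose on its P0 samples, so its place on that list is not independent of this series. How sequence differences between the mouse backgrounds affect its count was not tested.

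**Figure D4:**
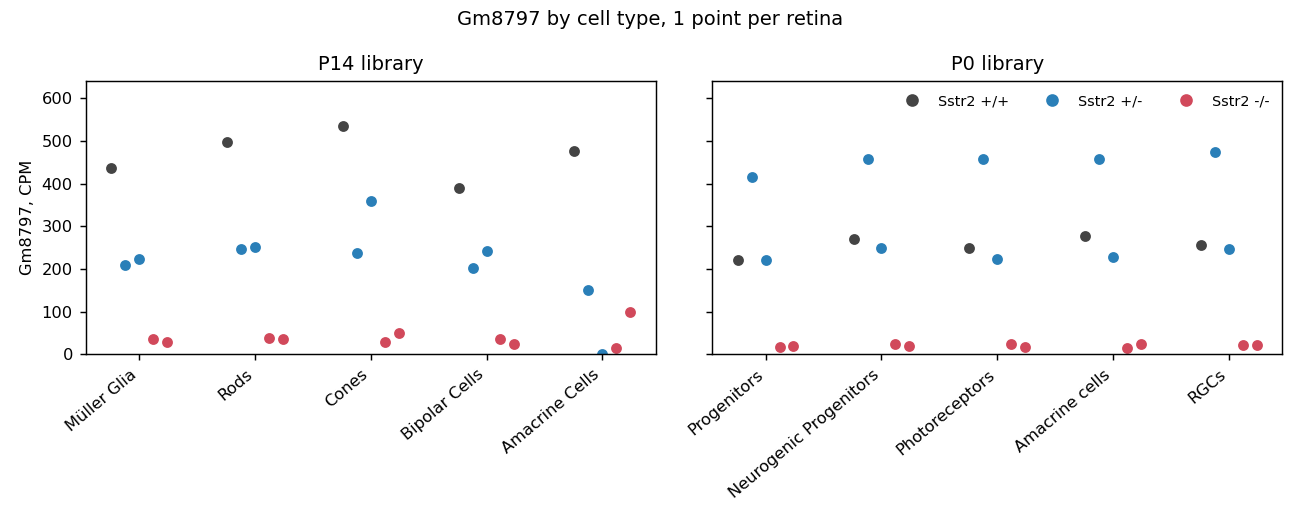
CPM of Gm8797 in each cell type of the P14 library (left) and the P0 library (right), with 1 point per retina, coloured by Sstr2 genotype. Knockout points lie near 30 CPM in P14 Müller glia and rods, and 1 heterozygous P0 sample at 415 CPM in progenitors lies above the wild-type sample at 221 CPM.

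The other genes that differed from wild type were fewer and smaller in count. Pttg1, the securin of chromosome separation (chr11:43420250-43426251, GRCm38, on the chromosome that carries Sstr2 at chr11:113619342-113626028), was at 3.87 CPM in the wild-type retina, 43.4 and 27.0 CPM in heterozygotes and 49.6 and 68.4 CPM in knockouts. It rose by 3.86 ± 0.54 on the log2 scale (SE, edgeR adjusted p = 8.8e-04), and it did not differ between knockout and heterozygous retinas beyond their spread (0.54 ± 0.36, adjusted p = 1). In bipolar cells its levels were 2.50 CPM in the wild-type retina, 43.7 and 16.2 in heterozygotes and 36.5 and 46.4 in knockouts, and in P0 progenitors the wild-type sample was the highest at 154 CPM. Rnf121, a membrane ubiquitin ligase (chr7:102019137-102065469), was at 173 CPM in the wild-type retina, 202 and 6.75 in heterozygotes and 30.5 and 18.4 in knockouts. Its log2 fold changes were −2.78 ± 0.51 against wild type and −2.50 ± 0.49 against heterozygous retinas (SE, edgeR adjusted p = 0.023 and 0.042). Heterozygous retina 2 lay below both knockout retinas for this gene. In rods it was at 33.7 CPM, against 228 CPM in heterozygous retina 1 and 37.9 and 32.5 CPM in the knockout retinas. The call against heterozygous retinas rests on heterozygous retina 1: without it, the log2 fold change was 1.88.

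The remaining 2 genes that were lower than in wild type are markers of other cells. Rgs5, a pericyte gene, was at 152 CPM in the wild-type retina, 35.6 CPM in knockout retina 1 and 0 in the other 3 retinas, with UMIs in 5 cells, of which the pericyte-pattern cell held 49.6% and astrocyte-pattern cells the rest. Without the 11 cells it had no UMI. Gng13, a G protein subunit of bipolar cells, was at 50.3 CPM in the wild-type retina and 3.82 and 10.0 CPM in the knockout retinas. It ran in parallel with the summed bipolar markers above, a sum that includes it, and 1 cell held 32.9% of its UMIs. Without cells above the 95th percentile of Scrublet score its log2 fold change was −0.97 (adjusted p = 1). Just outside the threshold was Creg2, a secreted glycoprotein, at 20.1 CPM in the wild-type retina, 60.2 and 108 CPM in heterozygotes and 62.4 and 112 CPM in knockouts (log2 fold change 2.08 ± 0.41 (SE), edgeR adjusted p = 0.050006). Among the widest differences that did not pass, Crhbp had 69 of its 70 UMIs in 1 cell of knockout retina 1, and Klf2, a flow-responsive factor of endothelium, was at 11.6 CPM in the wild-type retina, 131.5 and 0 CPM in heterozygotes and 86.5 and 102 CPM in knockouts, with the endothelial-pattern cell holding 25.2% of its UMIs. Necab2 and Pcdh7 had positive and Atp13a4 and Isl1 negative log2 fold changes, with adjusted p between 0.136 and 0.441.

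Against the heterozygous retinas, the metallothioneins Mt1 and Mt3, Gadd45b, Pim1, Gm8797, Rnf121 and Xist were called lower in knockout, and Igfbp7 and Ifitm3 higher. With the wild-type retina left out of the model, 2 of these genes passed, Gm8797 and Gadd45b, 6 did not, and Xist was not among the genes tested. Metallothioneins are small proteins that bind zinc and copper, and their genes lie side by side on chromosome 8. Mt1 (chr8:94179082-94180327) was at 1832 and 1775 CPM in the heterozygous retinas and at 1052 and 914 CPM in the knockout retinas, with the wild-type retina at 981 CPM. It fell by 0.89 ± 0.16 on the log2 scale (SE, edgeR adjusted p = 0.017). Mt3 (chr8:94152607-94154146) was at 361 and 459 CPM in the heterozygous, 188 and 212 CPM in the knockout and 251 CPM in the wild-type retina, and fell by 1.02 ± 0.21 (adjusted p = 0.0498), but did not pass with DESeq2 size factors (0.076) or without the 11 cells with markers of other types (0.056). Mt2, which lies between them, followed with 40.6 and 27.0 against 19.1 and 8.34 CPM but did not pass (log2 fold change −1.40 ± 0.51, adjusted p = 1). For Mt1 the wild-type value lay between those of the knockout retinas (log2 fold change 0.01 ± 0.19 against wild type, adjusted p = 1). Of the 14 tested genes of the metal and redox list, Mt1 and Mt3 passed as lower and none as higher. Among all tested genes, 0.0794% passed as lower in knockout. Without knockout retina 2 neither passed (−0.78 and −1.10), and without knockout retina 1 Mt3 did not (−0.93).

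Gadd45b, a growth arrest and stress gene (chr10:80930073-80932204), was at 192 and 169 CPM in the heterozygous retinas, 116 CPM in the wild-type retina and 67.4 and 51.7 CPM in the knockout retinas. It fell by 1.63 ± 0.26 against the heterozygous retinas (SE, edgeR adjusted p = 0.0065) and was lower than the wild-type value in both knockout retinas without passing (−0.95 ± 0.29, adjusted p = 0.62). Pim1, a kinase gene induced by cytokines (chr17:29490753-29496112), was at 176 and 101 CPM in the heterozygous, 71.9 CPM in the wild-type and 54.7 and 46.7 CPM in the knockout retinas, and fell by 1.60 ± 0.29 (adjusted p = 0.017), but not without heterozygous retina 1 (−0.97). Socs3, the inhibitor of cytokine signaling, lies at chr11:117966079-117970047, on the chromosome that carries Sstr2 (chr11:113619342-113626028). It was at 493 and 621 CPM in the heterozygous, 322 and 254 CPM in the knockout and 192 CPM in the wild-type retina. It did not pass between knockout and heterozygous retinas (−0.94 ± 0.20, adjusted p = 0.067), whereas heterozygous retinas were above the wild-type retina (1.53 ± 0.25, edgeR adjusted p = 0.013).

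Igfbp7, a secreted protein abundant in vessels, was at 26.6 and 101 CPM in heterozygotes, 139 and 185 CPM in knockouts and 62.7 CPM in the wild-type retina. It rose by 1.83 ± 0.37 on the log2 scale against heterozygous retinas (SE, edgeR adjusted p = 0.0498). The endothelial-pattern cell held 26.3% of its UMIs, and without the 11 cells the log2 fold change was 1.17 (adjusted p = 1). Ifitm3, an interferon-induced membrane protein, was at 15.4 and 33.7 CPM in the heterozygous, 91.6 and 61.7 CPM in the knockout and 76.6 CPM in the wild-type retina, and rose by 1.97 ± 0.40 (adjusted p = 0.0498), and by 1.76 without the 11 cells (adjusted p = 0.18). Without heterozygous retina 1 the log2 fold changes were 0.69 for Igfbp7 and 1.22 for Ifitm3, and neither passed. Ifitm3 shares 91.6% of 356 bases with Gm6885, and 1 cell held 24.1% of its UMIs. Among the widest positive fold changes that did not pass was Oasl2, at 8.40 and 0 CPM in heterozygotes, 64.9 and 31.7 in knockouts and 19.3 in the wild-type retina (adjusted p = 0.061). Isg15, Ifit3 and Bst2 were also among them, but knockout retina 2 was at 1.67, 1.67 and 10.0 CPM, near heterozygous retina 1 at 1.40, 0 and 8.40 CPM, and the wild-type retina was at 34.8, 26.3 and 48.7 CPM. For Isg15, 1 cell held 43.8% of the UMIs. Rbpms was also among them. Among the negative fold changes that did not pass were Prss56, Sft2d1, Dynlt1f and Rps12-ps3, and G0s2, of whose UMIs 1 cell held 57.4%. Xist, at 1296 CPM in the single female retina, was the remaining called gene (−7.87 ± 1.41, adjusted p = 0.017).

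**Figure D5:**
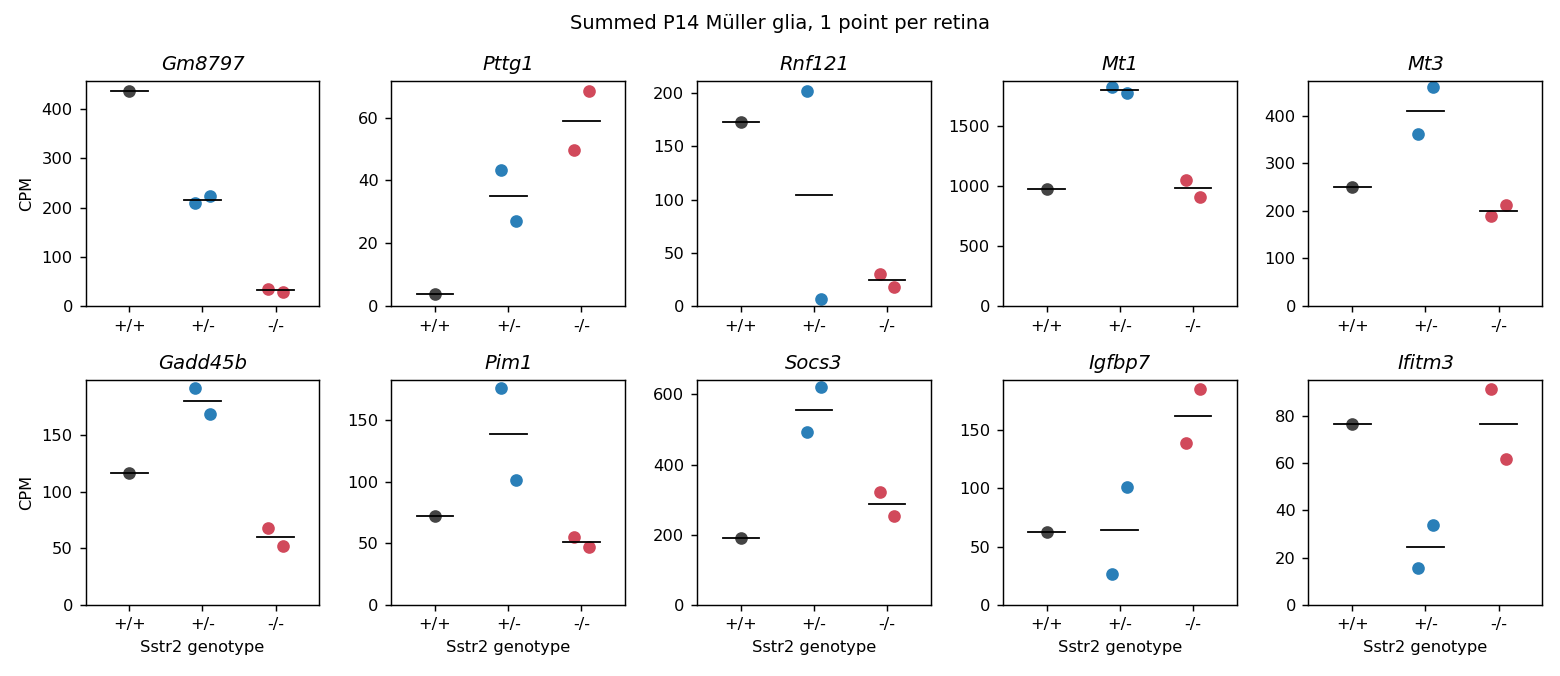
CPM in the summed Müller glia of each retina for 10 genes, by Sstr2 genotype, with 1 point per retina and a black line at the mean. Gm8797 steps down from 436 CPM in +/+ to 28.4 CPM in -/-, while Mt1, Mt3, Pim1 and Socs3 are highest in the heterozygous retinas and Rnf121 splits the heterozygous pair (202 and 6.75 CPM).

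With cells of at least 6000 UMIs alone, Gm8797 was the only gene past the threshold in either comparison, with log2 fold changes of −3.81 and −2.76, although fold changes of the others were of like size (Pttg1 3.79, Gadd45b −1.59, Mt3 −1.11, Igfbp7 1.90). DESeq2 also called Gm8797 alone in each comparison. In the simulated data described below, DESeq2 recovered 33.5% and 39% of genes changed 4-fold, against 69% and 72% with edgeR. DESeq2 made 0 and 1 false calls there, against 8 and 11 with edgeR. The simulated counts were drawn with edgeR's own estimates of spread, and changes smaller than 4-fold were not simulated.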

How the data were processed

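The P14 data were 1 pooled 10x 3′ library. The submitters' processing notes name Cell Ranger 3.1.0, Seurat 3 and genome build mm10 (the same assembly as the GRCm38 annotation, GENCODE M21, used here for positions). The authors deposited unnormalised UMI counts for each gene in each cell, SCTransform-corrected values on a natural log scale (log of 1 plus a corrected count), and a table with each cell's barcode sample, genotype and cell type, all of which were used as given. Doublet removal by the authors is not given in the sources used here. The members and gene lists were chosen with earlier results of these data known, and 1 of the 31 lists holds genes named in the study's own P0 comparison.

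Counts of Müller glia were summed per retina. All 5 retinas entered 1 model of genotype (filterByExpr, TMM, edgeR 4.0.16 glmQLFit and glmQLFTest, Benjamini-Hochberg threshold 0.05, SE as the log2 fold change over the root of F). Whether each barcode was a separate animal is not given in the sources used here, so p-values measure the spread between these samples, which may be technical. Replicate sums differed by more than sampling noise (chi-square per degree of freedom 3.17 for the heterozygous and 4.41 for the knockout pair). The wild-type retina against knockout retina 1 gave 3.25. In data simulated from these counts, with 200 of 8816 genes changed 4-fold, edgeR recovered 69% (knockout against wild type, 8 false calls) and 72% (knockout against heterozygous, 11 false calls). At 50 CPM or more it recovered 97.3% and 96.1%. Named genes were all genes past the threshold, the 6 largest rises and falls with at least 50 UMIs and no overlap, the 20 genes outside the lists, of at least 100 UMIs, most enriched over other types, and up to 4 examples per list. Further list members were named after their values were seen. Genes singled out for their spread (Spc25, Prss56, Optc), the comparison of heterozygous with wild-type retinas, Creg2, Socs3 and Mt2 were chosen after their values were seen. Scrublet (scanpy) marked 2 P14 cells and no Müller cell, too few for a working doublet call. Alternatives were DESeq2, limma on the SCT values, filters, cell subsets and leaving out each retina. The explant library was used here only to count shared barcodes. Values of a few genes are not reported here.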

Additional observations from a re-analysis of the deposited data

How the results depend on the processing

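No paired analysis was possible because the labels give no replicate numbers and the wild-type group holds 1 retina. The count of genes past the threshold, 5 against wild type and 9 against heterozygous retinas, was 1 and 1 with the DESeq2 Wald test, 43 and 34 with no filter on low counts, 0 and 0 with limma on SCT values (59 and 286 genes at an unadjusted p under 0.05, with the median of all genes at 0.04 and 0.26 on the log2 scale), and 1 with wild-type and heterozygous retinas as 1 group. With DESeq2 size factors it was 5 and 5, and Igfbp7, Ifitm3, Rnf121 and Mt3 lost the call against heterozygous retinas. Alternatives chosen after seeing the data gave 1 and 1 for cells of at least 6000 UMIs, 2 and 3 without cells above the 95th percentile of Scrublet score, and 12 and 13 without the 11 cells with markers of other types. Leaving out each retina gave 30 to 51 genes against wild type and 2 to 48 against heterozygous retinas, where a group of 1 retina is assumed to vary like the others. The tallies that follow include the fit without cells that Scrublet marks. That fit drops no Müller cell and repeats the main fit, so every called gene has 1 call fixed in advance. The fits with each retina left out are also counted. Gm8797 was called in 12 of 13 and 13 of 14 of these alternatives, all but limma. Against wild type, Pttg1 was called in 9 of 13, Rnf121 and Gng13 in 8 of 13 and Rgs5 in 7 of 12. Against heterozygous retinas, Gadd45b was called in 10 of 14, Pim1 in 8, Mt1 in 7, Rnf121 in 6, Igfbp7 in 5, and Ifitm3 and Mt3 in 4 of 14, and Xist in 7 of 11. For the other called genes, the direction was kept in the alternatives that tested them (11 of 14 for Xist, 12 of 13 for Rgs5), except for Rnf121 without heterozygous retina 1, where its log2 fold change against heterozygous retinas was 1.88 (−3.05 without heterozygous retina 2). Without that retina, 34 genes passed.

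The count of glial genes was 816 at 2-fold and 294 at a minimum of 200 UMIs, against 526, and 467 to 572 with each retina left out. The knockout share of Müller glia exceeded that of other retinas by 3.35 percentage points, by 1.22 to 5.47 with each retina left out, and by 1.22 without knockout retina 1. At 14 cells and 148196 UMIs, heterozygous retina 2 brings the widest counting error to comparisons with the heterozygous group.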
